A study of Mus musculus with 4 samples.

Results

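Cyp2b10, Cyp4b1 and Por are 3 of the 14561 genes listed over 4 mouse lung libraries, chosen by name because earlier values of the same libraries had shown Cyp2b10 and Cyp4b1 high in alveolar type 1 (AT1) cells. Their levels over age and cell type are therefore given as a description, with no test. Cyp2b10 and Cyp4b1 are cytochrome P450 genes, whereas Por encodes the reductase that serves them, so the set is 2 P450 genes and a partner. All 3 were listed in each of the 4 libraries.

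The 4 libraries were made by 3′ droplet sequencing of sorted cells, with 1 library for each group. They hold AT2 cells at postnatal day 60 (P60) and AT1 cells at P3, P15 and P60. All mice were of mixed FVB and C57BL6 background, carried Sftpc-CreER, Rosa26-Zsgreen and Hopx-RFP, and were given tamoxifen. AT2 cells were sorted as GFP positive and CD45 negative, after digestion with neutral protease and DNase I. AT1 cells were sorted as RFP and Pdpn positive and GFP and CD45 negative, from lungs digested with elastase and type I collagenase as well. The green label depends on a Cre driven by the AT2 gene Sftpc, and Hopx and Pdpn are part of the AT1 gate. The number of animals behind each library is unknown here, so values can be compared only with counting error, and the enzymes used cannot be told apart from cell type at P60.

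Cytochrome P450 enzymes are haem proteins of the endoplasmic reticulum that insert an oxygen atom into lipids, steroids, drugs and other foreign compounds. They need electrons, which the flavoprotein encoded by Por passes to them from NADPH, with cytochrome b5 as a second donor for some of them. Cyp2b10 is a drug-metabolising P450 whose liver gene is a standard target of the nuclear receptor CAR (Nr1i3), and Cyp4b1 is a fatty acid hydroxylase of the CYP4 family that also turns some plant toxins into lung poisons. In the lung, P450 activity has been known above all from the secretory club cells of the airways. AT1 cells are the flat cells across which gas is exchanged, and AT2 cells are the cuboidal cells that make surfactant.

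In the GENCODE annotation of GRCm38 (mm10) the protein-coding genes span chr7:25897620-25926624 on the plus strand for Cyp2b10, chr4:115624725-115647723 on the minus strand for Cyp4b1 and chr5:135670033-135735326 on the plus strand for Por. The DNA before a RefSeq start of each gene is shown because the 2 P450 genes differ far more between libraries than Por does. The letters are the 250 bases before the RefSeq start on GRCm38.p6, read along the gene, with matches to 9 searched motifs in capitals. Cyp2b10 lies on the plus strand and its window is chr7:25897408-25897657. Cyp4b1 lies on the minus strand and its window is chr4:115647722-115647971. Por lies on the plus strand and its window is chr5:135688895-135689144. The RefSeq starts are not the edges of the GENCODE spans above. The Por window lies wholly inside its span, and the Cyp2b10 and Cyp4b1 windows overlap the edge of theirs.
Cyp2b10: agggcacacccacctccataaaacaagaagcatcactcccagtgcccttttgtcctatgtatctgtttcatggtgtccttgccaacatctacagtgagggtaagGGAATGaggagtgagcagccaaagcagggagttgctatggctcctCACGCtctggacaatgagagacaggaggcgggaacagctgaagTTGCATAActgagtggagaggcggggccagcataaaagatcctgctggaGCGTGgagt
Cyp4b1: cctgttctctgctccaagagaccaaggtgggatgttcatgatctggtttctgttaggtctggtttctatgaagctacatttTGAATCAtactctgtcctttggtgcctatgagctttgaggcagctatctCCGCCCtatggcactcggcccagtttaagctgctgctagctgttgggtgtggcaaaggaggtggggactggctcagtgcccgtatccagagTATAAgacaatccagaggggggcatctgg
Por: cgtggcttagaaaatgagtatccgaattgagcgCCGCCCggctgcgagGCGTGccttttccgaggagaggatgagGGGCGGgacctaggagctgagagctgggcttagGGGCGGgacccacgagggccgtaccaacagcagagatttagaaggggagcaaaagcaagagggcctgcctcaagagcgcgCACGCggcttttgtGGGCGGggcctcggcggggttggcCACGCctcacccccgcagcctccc

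The searched motifs, on both strands, were the TATA box TATAA, the CCAAT box, the GC box GGGCGG, the C/EBP motif TTGCNNAA, the aryl hydrocarbon receptor core GCGTG, the nuclear receptor motif AGGTCA, the NKX2-1 motif CAAGTG, the TEAD motif CATTCC and the AP-1 motif TGANTCA, and no match overlapped another. In Cyp2b10, the capitals mark GGAATG (the TEAD motif on the other strand), TTGCATAA (the C/EBP motif) at 58 to 51 bases before the start, and GCGTG, the aryl hydrocarbon receptor core, once on each strand. In Cyp4b1 they mark TATAA at 29 to 25 bases before the start, a GC box (CCGCCC) and TGAATCA, the AP-1 motif. In Por they mark 4 GC boxes and 3 copies of GCGTG, and the window holds 65.6% G and C, against 52.8% in Cyp2b10, 51.6% in Cyp4b1 and a median of 52.4% over 32851 promoters. These letters are common: TTGCNNAA stands in 9.56% of those promoters, TGANTCA in 6.75%, CATTCC in 12.6%, TATAA in 22.8%, GCGTG in 28.2% and GGGCGG in 32.7%. CCAAT (33.8%), the nuclear receptor motif AGGTCA (14.0%) and the NKX2-1 motif CAAGTG (11.6%) had no match in the 3 windows. A match is a run of letters and was not tested as a binding site.

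The files held 2093 AT2 cells at P60 and 3149, 2940 and 1337 AT1 cells at P3, P15 and P60, with a median of 4864 unique molecular identifiers (UMIs) per AT2 cell and of 4928.5 to 7477 per AT1 cell. Clusters named from marker genes left a sorted class of 2033 AT2-like cells and of 2844, 2663 and 1183 AT1-like cells. Pairs of libraries shared 3 to 15 cell barcodes. The markers fitted the labels: Ager, an AT1 receptor gene, had 1594 CPM (UMIs scaled to a class total of 1000000) in the AT2 class and 16774 to 35030 CPM in the AT1 classes, and Sftpc, a surfactant gene, had 135772 CPM in the AT2 class and 124 to 309 CPM in the AT1 classes. The airway secretory gene Scgb1a1 read 2603 CPM in the AT2 class and 1026, 274 and 1071 CPM in the AT1 classes at P3, P15 and P60, and without the cells that held a UMI of the airway genes Scgb3a2, Scgb3a1 or Cyp2f2 every log2 ratio of the members between libraries stayed within counting error of the value given.

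Cyp2b10 had 32.3 CPM in the AT2 class at P60 (95% Poisson interval 28.9 to 36.0, from 331 UMIs). In the AT1 class it had 15.8 CPM at P3 (14.2 to 17.5, from 359 UMIs), 1157 CPM at P15 (1139 to 1175, from 16006 UMIs) and 1722 CPM at P60 (1690 to 1754, from 11108 UMIs). The order from low to high was AT1 at P3, AT2 at P60, AT1 at P15 and AT1 at P60, with no overlap between the intervals of neighbours. These intervals cover counting error only, and the spread between animals is unknown with 1 library per group. Between ages, the level was 73.1-fold higher at P15 than at P3 (65.9 to 81.4), which was rank 2 of 3287 genes, and 109-fold higher at P60 than at P3 (97.9 to 121), rank 5 of 3461 genes. From P15 on the difference was small, with P60 1.49-fold above P15 (1.45 to 1.52), rank 431 of 3431 genes. The AT2 class was 53.3-fold lower than the AT1 class at P60 (47.7 to 59.6), rank 113 from the lowest of 3504 genes.

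Cyp4b1 had 5.57 CPM in the AT2 class at P60 (4.22 to 7.21, from 57 UMIs), the lowest of the 4. In the AT1 class it had 24.4 CPM at P3 (22.4 to 26.5, from 554 UMIs), 574 CPM at P15 (561 to 586, from 7934 UMIs) and 1425 CPM at P60 (1396 to 1455, from 9195 UMIs). Here the order was AT2 at P60, then AT1 at P3, P15 and P60, again with no overlap of neighbours. Cyp4b1 was 23.5-fold higher at P15 than at P3 (21.5 to 25.7), rank 3 of 3287, and 58.4-fold higher at P60 than at P3 (53.6 to 63.7), rank 7 of 3461. Unlike Cyp2b10, it was still well apart between the later ages, 2.48-fold higher at P60 than at P15 (2.41 to 2.56), rank 78 of 3431. In the AT2 class it was 256-fold lower than in the AT1 class at P60 (197 to 338), rank 35 from the lowest of 3504. The number of Cyp4b1 UMIs per Cyp2b10 UMI was 1.54 at P3 (1.35 to 1.77), 0.496 at P15 (0.482 to 0.509) and 0.828 at P60 (0.805 to 0.851) in the AT1 classes, so the balance of the pair was not the same at the 3 ages.

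Por varied far less than the P450 genes it serves. In the AT2 class it had 153 CPM (145 to 160, from 1563 UMIs), and in the AT1 class 63.9 CPM at P3 (60.6 to 67.2, from 1449 UMIs), 99.9 CPM at P15 (94.7 to 105, from 1382 UMIs) and 121 CPM at P60 (112 to 129, from 778 UMIs). It was 1.56-fold higher at P15 than at P3 (1.45 to 1.69), 1.89-fold higher at P60 than at P3 (1.73 to 2.06) and 1.21-fold higher at P60 than at P15 (1.10 to 1.32). The AT2 class, lowest or next to lowest for the P450 genes, was highest for Por, 1.27-fold above the AT1 class at P60 (1.16 to 1.38).

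Against all genes measured, 2 of the 3 members were at least 2-fold higher at P60 than at P3, where 13.3% of genes were at least 2-fold higher and 9.68% at least 2-fold lower. The same 2 were at least 2-fold higher at P15 than at P3, against 9.22% of genes higher and 6.66% lower, and 1 of 3, Cyp4b1, was so at P60 over P15, against 3.91% higher and 4.4% lower. In the AT2 class 2 of 3 were at least 2-fold lower than in the AT1 class at P60, against 40.5% of genes lower and 13.3% higher. The members were chosen with these contrasts in view, so nothing is read from the counts, and comparisons that use the same library are not independent of each other. The median gene differed by 0.12 on the log2 scale at P60 over P3, 0.13 at P15 over P3, -0.04 at P60 over P15 and -0.73 in AT2 over AT1 cells. Scaling by a trimmed mean of ratios moved every log2 ratio by -0.22, -0.03, -0.14 and 0.67 in these 4 comparisons, which puts the AT2 class at -5.06 for Cyp2b10, -7.32 for Cyp4b1 and 1.02 for Por, against -5.74, -8.00 and 0.34 by total UMIs. Summing all cells of a library in place of the class gave log2 ratios at P60 over P3 of 5.77 for Cyp2b10 and 5.01 for Cyp4b1, against 6.77 and 5.87 in the class, and at P15 over P3 of 5.14 and 3.68, against 6.19 and 4.55.

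**Figure D1:**
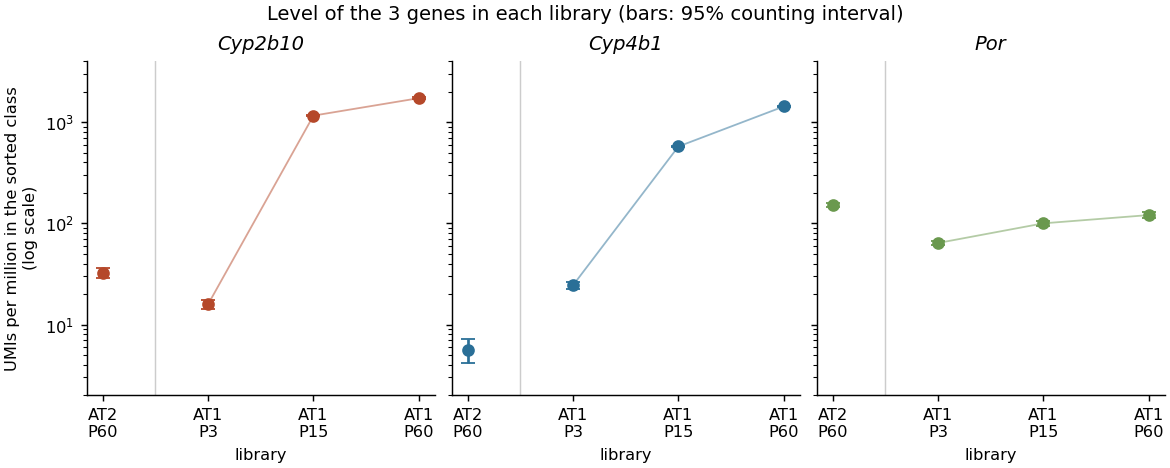
CPM (log axis) of Cyp2b10, Cyp4b1 and Por in the sorted class of each library, with 1 library per group; bars are 95% Poisson intervals and lines join the AT1 ages. Cyp2b10 and Cyp4b1 lie at 32.3 and 5.57 CPM in AT2 cells, against 1722 and 1425 CPM in AT1 cells at P60, while Por lies between 63.9 and 153 CPM in all 4.

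The level of a class can differ because more cells hold a transcript or because each cell holds more of it, so UMIs were counted per cell after every cell was thinned to 2000 UMIs, which left out 43 AT2 cells and 0, 210 and 121 AT1 cells at P3, P15 and P60. A Cyp2b10 UMI was then found in 6.13% of AT2 cells (exact interval 5.12 to 7.28%), and in 2.81% of AT1 cells at P3 (2.24 to 3.49%), 66.7% at P15 (64.7 to 68.5%) and 94.4% at P60 (92.9 to 95.7%). Without thinning these shares were 12.7% in AT2 cells and 6.33, 76.3 and 96.3% in AT1 cells. AT1 cells with 4 or more Cyp2b10 UMIs made up 0.141% at P3, 26.1% at P15 and 43.8% at P60. At a fixed depth both shares rise with the mean level alone, so they cannot tell more cells with the transcript from more of it per cell.

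For Cyp4b1 the shares of thinned cells were 0.804% in AT2 cells (0.46 to 1.3%), and 4.36% at P3 (3.64 to 5.18%), 53.9% at P15 (51.9 to 55.8%) and 87.4% at P60 (85.2 to 89.3%) in AT1 cells. Unthinned, they were 1.87% in AT2 cells and 14.2, 71.4 and 94.3% in AT1 cells. No P3 cell had 4 or more Cyp4b1 UMIs after thinning, and 9.13% of cells did at P15 and 31.4% at P60. A Por UMI was found in 25.8% of AT2 cells (23.9 to 27.8%), and in 12.4% (11.2 to 13.6%), 18.5% (17.0 to 20.1%) and 21.4% (18.9 to 24.0%) of AT1 cells at P3, P15 and P60. Without thinning, these shares were 52.4% in AT2 cells and 38.1, 37.7 and 44.5% in AT1 cells. Por was thus at 1 UMI or none in most cells of every library at this depth.

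The P450 genes were spread unevenly over AT1 cells at all 3 ages. The variance of thinned Cyp2b10 UMIs over cells was 1.77 times the mean at P3, 2.95 times at P15 and 1.37 times at P60, where random sampling of identical cells gives 1, and at P15 33.3% of cells had no Cyp2b10 UMI although the mean was 2.29 per cell. The same ratio for Cyp4b1 was 1.22 at P3, 2.27 at P15 and 1.82 at P60. For Por it was 0.982, 1.03 and 1.06 at P3, P15 and P60. At the same relative spread the excess over 1 grows with the mean, and thinned Por had a low mean (0.131 UMIs per cell at P3, 0.207 at P15). Its ratios near 1 therefore cannot tell an even spread from an uneven one. For the same reason the ratios alone do not rank the genes or the ages. Set against the mean, the excess of both P450 genes was largest at P3 and smallest at P60. Their P3 means were 0.0376 UMIs per thinned cell for Cyp2b10 and 0.0492 for Cyp4b1, against 3.43 and 2.88 at P60. At P3, 4 of 2844 thinned cells had 4 or more Cyp2b10 UMIs, and a cell had up to 11 before thinning. Both P450 genes had a higher mean at P60 than at P15 but a lower ratio. The tenth of cells richest in Cyp2b10 held 24.2% of its UMIs at P60 (119 cells) and 37.6% at P15 (267 cells), where a cell had up to 58 UMIs.

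**Figure D2:**
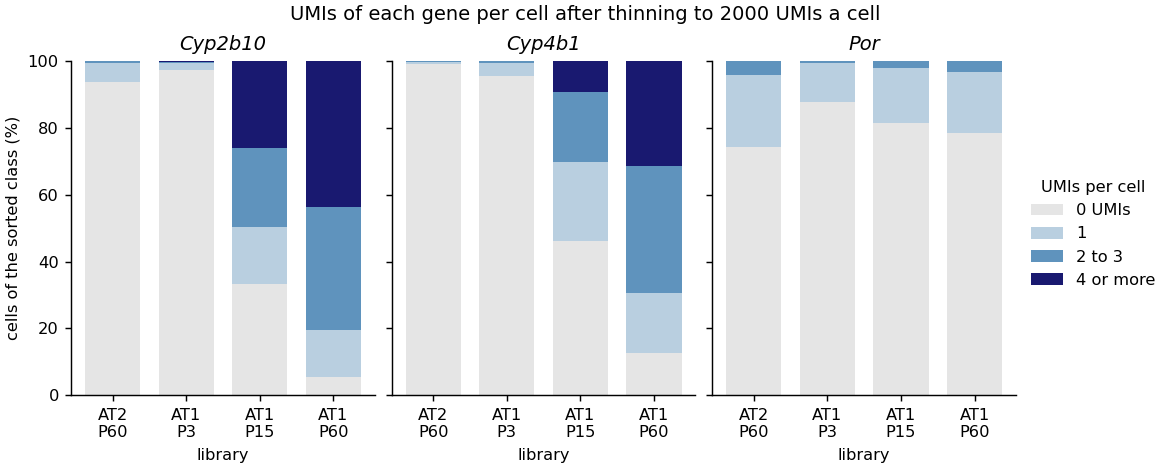
Share of cells of the sorted class (%) by the number of UMIs of each gene after thinning every cell to 2000 UMIs, by library. For Cyp2b10, 5.56% of AT1 cells at P60 and 33.3% at P15 had no UMI, and a Por UMI was found in 12.4 to 21.4% of AT1 cells and 25.8% of AT2 cells.

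Free RNA in a droplet can put a UMI into a cell that does not make the gene, so the levels in the other cell types of each library were set beside those of the class. The AT2 library held 60 other cells, with a median of 1586.5 UMIs per cell, against 4902 in the AT2 class. Of these 60, 0 had a Cyp2b10 UMI (exact interval 0 to 5.96%), against 12.7% of the deeper, unthinned AT2 cells. Of the 19 that reached the thinning depth, 0 had one (0 to 17.6%), against 6.13% of thinned AT2 cells (5.12 to 7.28%). At like depth these shares thus overlap in their intervals. By level the 60 cells read 0 CPM of Cyp2b10 (0 to 26.6), just below the AT2 class (28.9 to 36.0). The interval of the 60 overlaps the 26.0 to 32.7 CPM of the class without 13 cells led by AT1 genes (below). A Cyp4b1 UMI was found in 4 of the 60 (6.67%, 1.85 to 16.2%), against 1.87% of AT2 cells. Other cells can hold Cyp4b1 themselves, as endothelial-like cells of the AT1 libraries did (below). The 60 cells are therefore no clean background for Cyp4b1. At P15 the fibroblast, pericyte and smooth muscle-like cluster of 110 cells (median 4752.5 UMIs per cell, against 4937 in the AT1 class) read 80.5 CPM of Cyp2b10 (58.9 to 107), which was 6.96% of the AT1 level (5.09 to 9.28%), while Ager stood at 7.11% of its AT1 level in the same cells. In these cells 88.5% had no Cyp2b10 UMI after thinning. The immune-like cluster of 54 cells (median 3113.5 UMIs) read 129 CPM, 11.1% of the AT1 level (7.61 to 15.7%), beside 15.1% for Ager. At P60 the AT2 and immune-like cluster of 53 cells (median 2973 UMIs, against 5365 in the AT1 class) read 407 CPM, 23.6% of the AT1 level (19.2 to 28.8%), beside 22.2% for Ager. In these 3 clusters Cyp2b10 thus stood near the share of the AT1 level that Ager also had.

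Cyp4b1 stood above these shares in endothelial-like cells, which are not part of the sort. At P15 the endothelial-like cluster of 42 cells, led by Ccl21a, Cldn5, Ramp2 and Egfl7 (median 3499 UMIs), read 884 CPM of Cyp4b1 (764 to 1017, from 195 UMIs), which was 154% of the AT1 level (133 to 177%), beside 20.4% for Cyp2b10 and 18.0% for Ager. At P60 the endothelial-like cluster of 53 cells, which also had Acta2, Inmt, Mfap4 and Tagln among its leading genes, read 808 CPM (681 to 951, from 144 UMIs), 56.7% of the AT1 level (47.8 to 66.7%), beside 16.0% for Cyp2b10 and 17.5% for Ager. At P3 the endothelial and fibroblast-like cluster of 50 cells read 124 CPM (94.7 to 160, from 60 UMIs), 508% of the AT1 level (388 to 654%), with 1 UMI of Cyp2b10. The number of Cyp4b1 UMIs per Cyp2b10 UMI was 3.75 in the endothelial-like cells at P15 (2.75 to 5.20) and 2.94 at P60 (2.11 to 4.15), above the 0.496 and 0.828 of the AT1 classes. Por was at 40.8 CPM in the endothelial-like cells at P15 (18.7 to 77.5), below the 99.9 CPM of the AT1 class. At P60 it was at 67.3 CPM there (34.8 to 118), an interval that overlaps that of the AT1 class (112 to 129).

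Airway cells held all 3 genes at the age when AT1 cells held little of the P450 genes. At P3 the club and ciliated-like cluster of 142 cells (median 12549.5 UMIs, against 7294 in the AT1 class) read 233 CPM of Cyp2b10 (212 to 256), 271 CPM of Cyp4b1 (248 to 296) and 182 CPM of Por (163 to 203), against 15.8, 24.4 and 63.9 CPM in the AT1 class. The same cluster had 47532 CPM of Scgb1a1, 2035 CPM of Scgb3a2 and 1390 CPM of Cyp2f2, all club cell genes, and Cyp2f2 is a club cell P450. These are sums over a mixed cluster. Of the 305 other cells of this library, the 31 richest in a gene held 95.5% of Scgb1a1 and 98.1% of Scgb3a2 UMIs. The same share was 59.2% for Cyp2f2, 48.1% for Cyp2b10 and 45.3% for Cyp4b1, so the P450 genes were spread over more cells. The AT1 class at P3 had 2.16% of that cluster's Scgb1a1 (2.13 to 2.19%), 0.988% of its Scgb3a2 and 0.720% of its Cyp2f2, but 6.78% of its Cyp2b10 (6.10 to 7.52%) and 9.01% of its Cyp4b1 (8.28 to 9.80%), so these genes did not stand at 1 common share. Cyp2b10 had 2.73 CPM (0.0692 to 15.2) in the 41 immune-like cells of that library and 9.10 CPM (4.36 to 16.7) in its 65 AT2-like cells, intervals that reach the 15.8 CPM of the AT1 class or just below. These cells also held Ager, at 68.4% of the AT1 level (66.4 to 70.5%) in the immune-like and 46.2% (45.3 to 47.2%) in the AT2-like cluster, so they give no background free of AT1 transcripts. At P15 the AT2 and club-like cluster of 63 cells, at 141946 CPM of Scgb1a1, had 311 CPM of Cyp2b10 (264 to 365), 395 CPM of Cyp4b1 (341 to 455) and 297 CPM of Por (250 to 349), which for Cyp2b10 and Cyp4b1 was below the AT1 class and for Por 297% of it (251 to 349%).

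**Figure D3:**
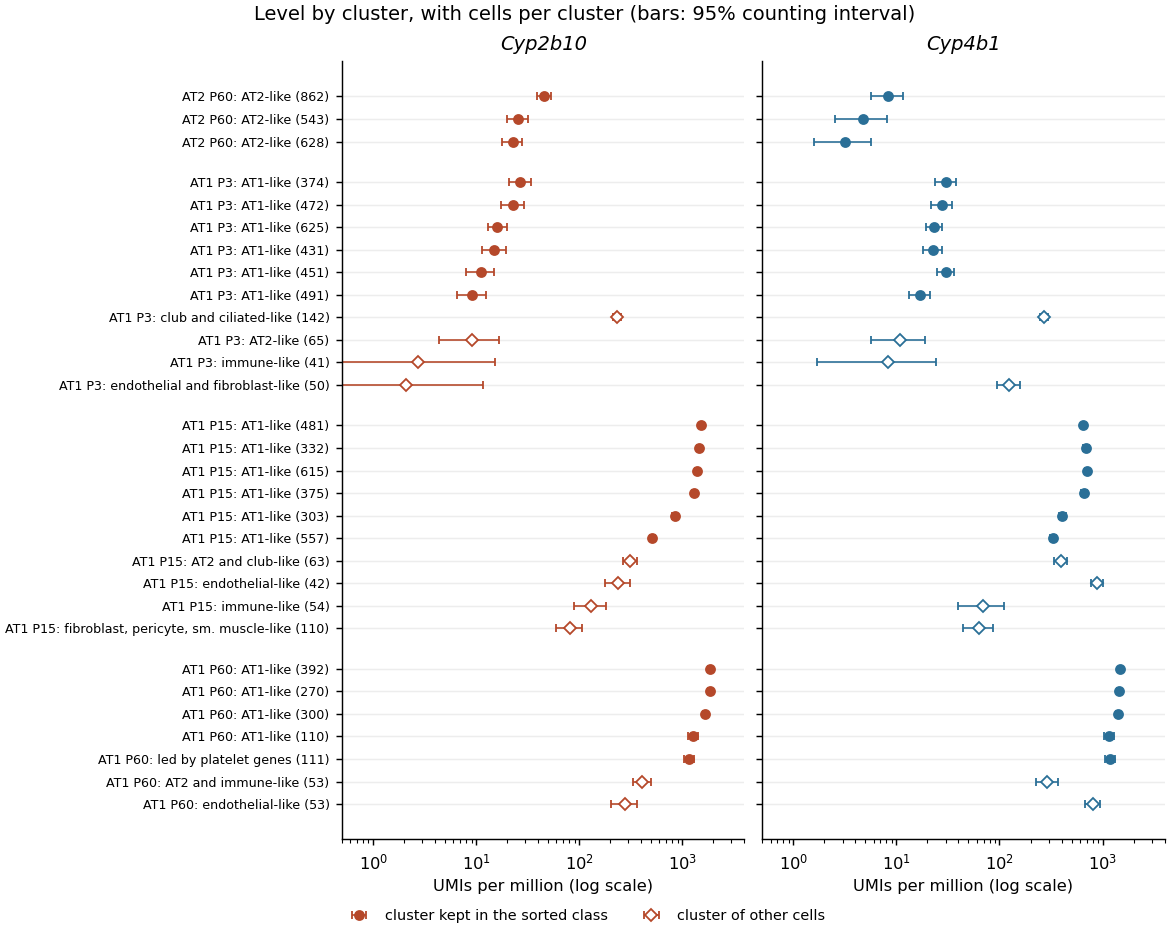
CPM (log axis) of Cyp2b10 and Cyp4b1 in each cluster of at least 35 cells, by library, with the number of cells in brackets; filled circles are clusters kept in the sorted class, open diamonds are other cells, and bars are 95% Poisson intervals. Cyp4b1 reaches 884 and 808 CPM in the endothelial-like clusters at P15 and P60, where Cyp2b10 is at 236 and 275 CPM.

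The clusters kept in the AT1 classes also differed in the P450 genes. At P15 Cyp2b10 ran from 512 CPM (487 to 537) in 557 cells to 1512 CPM (1470 to 1555) in 481 cells, a 2.96-fold range, and the richest cluster had Cyp2b10 among the genes that defined it. The poorest cluster was led by S100a14, Nme1, Ndnf, Tmsb10 and the tubulin genes Tuba1b, Tuba1a and Tubb2a, and it was also the poorest in Cyp4b1, at 332 CPM (312 to 353), and in Por, at 75.7 CPM (66.3 to 86.0). The next poorest, 303 cells led by the interferon-induced genes Isg15, Oasl2 and Ifit1, had 843 CPM of Cyp2b10 (797 to 892) and 406 CPM of Cyp4b1 (374 to 440) but 110 CPM of Por (93.6 to 128). The other 4 clusters lay between 1295 and 1512 CPM of Cyp2b10 and between 653 and 708 CPM of Cyp4b1. The uneven spread was present inside clusters too, since the variance of thinned Cyp2b10 UMIs was 2.31 to 3.38 times the mean in the 6 clusters. At P60 the range over 5 clusters was 1173 to 1847 CPM for Cyp2b10, 1165 to 1482 CPM for Cyp4b1 and 104 to 129 CPM for Por. The low end of Cyp2b10 was a cluster of 111 cells led by the platelet genes Ppbp, Pf4 and Itga2b, with no AT1 marker among its 10 leading genes and a median of 2060 UMIs per cell. It was kept in the class by its level of AT1 markers, with Ager at 101% of the class level (98.6 to 104%), and the marker lists held no platelet genes. Without it the AT1 class at P60 had 1745 CPM of Cyp2b10, 1436 CPM of Cyp4b1 and 121 CPM of Por, each within the counting error given above. At P3 the 6 clusters had 9.12 to 26.6 CPM of Cyp2b10, a 2.91-fold range from fewer UMIs (lowest cluster 6.45 to 12.5, highest 20.6 to 33.7), 16.8 to 30.3 CPM of Cyp4b1 and 50.4 to 90.3 CPM of Por.

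The P15 cells were also set side by side by their own Cyp2b10 UMIs, as a description chosen after the values were seen. After thinning, 640 AT1 cells had 4 or more Cyp2b10 UMIs and 818 had none, with medians of 5198.5 and 5263 UMIs per cell before thinning. Among 1696 genes with at least 100 CPM in either set, 4 were 2-fold or further apart. These were Sftpd, S100a14, Nnat (90.6 CPM in the rich cells, 215 CPM in those with none) and Gm9844 (54.8 and 111 CPM), all lower in the cells rich in Cyp2b10. Sftpd, a surfactant protein gene, had 39.5 CPM in the rich cells and 141 CPM in those with none, 3.57-fold lower (2.97 to 4.33), while the surfactant gene Sftpc had 114 and 121 CPM. Tmsb10, an actin-binding peptide gene, had 1221 CPM in the rich cells and 2332 CPM in those with none, and the calcium-binding S100a14 had 65.8 and 195 CPM. Cyp4b1 had 764 CPM in the rich cells and 454 CPM in those with none, 1.68-fold higher (1.59 to 1.79). Rapgef4 and Hist1h1c, with the highest ratios of the 1696 genes, lay at 1.83-fold (1.58 to 2.14) and 1.77-fold (1.57 to 2.01). Por was 1.26-fold higher in the rich cells (1.10 to 1.45), the AT1 gene Hopx 1.27-fold (1.22 to 1.32), Ager 1.08-fold (1.07 to 1.09) and the airway gene Scgb1a1 1.05-fold (0.961 to 1.14). Across the libraries, S100a14 had 14.9 CPM in the AT2 class and 629, 127 and 44.8 CPM in the AT1 classes at P3, P15 and P60, and Tmsb10 had 298 CPM in the AT2 class and 3954, 1813 and 162 CPM in the AT1 classes. Of the others with the lowest ratios, Nnat (419, 151 and 31.6 CPM) and Gm9844 (261, 87.4 and 10.8 CPM) also fell over the AT1 ages. Ndnf (834, 698 and 718 CPM) and Nme1 (149, 148 and 134 CPM) changed less. S100a10 (427, 474 and 175 CPM) and Sftpd (77.2, 82.9 and 8.83 CPM) did not fall from P3 to P15.

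**Figure D4:**
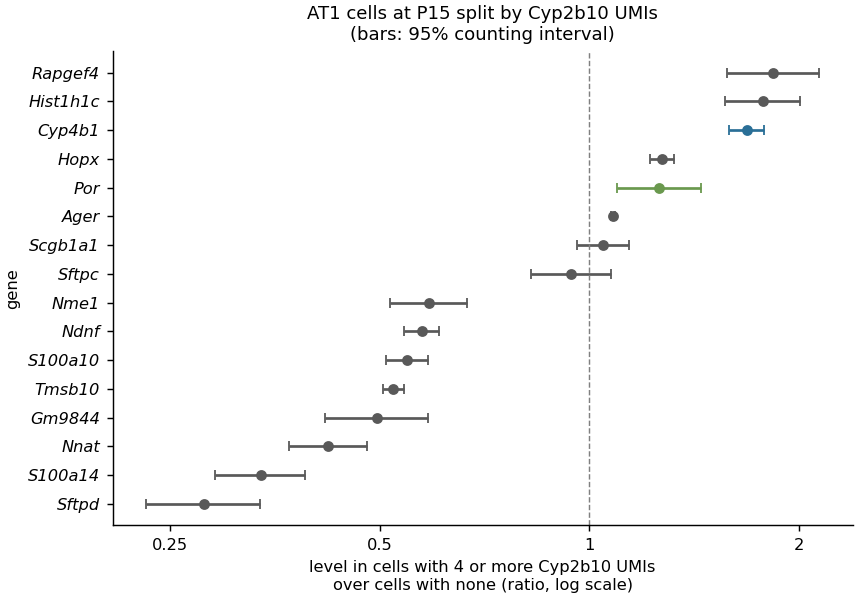
Ratio (log axis) of the level in the 640 AT1 cells at P15 with 4 or more Cyp2b10 UMIs over the 818 with none, for the 2 genes with the highest and the 8 with the lowest ratio among 1696, and for Cyp4b1, Por and the marker genes Ager, Hopx, Sftpc and Scgb1a1; bars are 95% counting intervals. Cyp4b1 lies at 1.68 and Sftpd at 0.280, and the dashed line marks equal levels.

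Joint detection asks whether the cells with one transcript are the cells with another. The bounds beside each ratio are those of the observed joint share over a product held fixed. They leave out the error of the single shares and are not an interval of the ratio itself. At P15, Cyp2b10 and Cyp4b1 were found together in 934 of 2453 thinned cells, or 38.1% (36.1 to 40.0%), where the product of the single shares is 35.9%, a ratio of 1.06 (1.01 to 1.12). Cyp4b1 was found in 57.1% of cells with a Cyp2b10 UMI (54.7 to 59.5%) and in 47.3% of those without (43.8 to 50.8%), and its mean was 0.935, 1.09, 1.24 and 1.58 UMIs in cells with 0, 1, 2 to 3 and 4 or more Cyp2b10 UMIs. At P60 both were found in 881 of 1062 cells, 83.0% against a product of 82.5%, a ratio of 1.01 (0.976 to 1.03), and with both genes in nearly every cell little room is left for a departure. At P3 7 of 2844 cells held both, where the product gives 3.49, a ratio of 2.01 (0.807 to 4.13).

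Por was found with either P450 gene about as often as the product of shares at all 3 AT1 ages, at ratios from 0.909 to 1.04 whose bounds all held 1. Thinned Por had a mean of 0.207 UMIs per cell at P15, so its detection shows a small difference poorly. By level, Por was 1.26-fold higher (1.10 to 1.45) in the P15 cells rich in Cyp2b10 than in those with none. With Cyp2b10 in 94.4% and Cyp4b1 in 87.4% of AT1 cells at P60, the Por ratios there also had little room above 1. Pairs of a member with Scgb1a1, a gene of other cells, had ratios from 0.959 to 1.00 in AT1 cells. Scgb1a1 was found in 87.3% of AT1 cells at P3 and 88.5% at P60, so its ratios at these ages were held near 1 and are no check. At P15 it was found in 42.2%. All 3 members were detected in 4 of 1990 AT2 cells (0.201%), and in 1 of 2844 AT1 cells at P3 (0.0352%), 190 of 2453 at P15 (7.75%) and 192 of 1062 at P60 (18.1%). None of the 3 was detected in 69.3% of AT2 cells, and in 81.5% of AT1 cells at P3, 14.4% at P15 and 0.753% at P60.

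In the AT2 library 6 of 1990 cells held both P450 genes, where the product gives 0.981, a ratio of 6.12 (2.25 to 13.3), and without thinning the ratio was 1.86. At a finer clustering, 13 cells of the AT2 class formed a group led by AT1 genes, with Hopx, Pdpn, Igfbp2, Akap5, Rtkn2 and Cav1 among its 10 leading genes, and 5 of the 6 cells lay in it. Cyp4b1 was itself one of those 10, so its level there is no finding apart from how the group was formed. That group read 514 CPM of Cyp2b10 (356 to 718, from 34 UMIs) and 363 CPM of Cyp4b1 (232 to 539, from 24 UMIs), with 7040 CPM of Ager and 81852 CPM of Sftpc, so markers of both cell types were present. It held 10.3% of the Cyp2b10 UMIs and 42.1% of the Cyp4b1 UMIs of the AT2 class. The rest of the AT2 class had 29.2 CPM of Cyp2b10 (26.0 to 32.7), 1.70% of the AT1 level at P60, and 3.24 CPM of Cyp4b1 (2.23 to 4.55), 0.228% of it, while Ager stood at 7.04%. A clustering at that resolution put the AT2 class at a log2 ratio of -9.01 to the AT1 class for Cyp4b1. Whether the 13 were single cells or doublets was not tested, and no doublet caller was run. Over the 3 AT2 clusters Cyp2b10 ran from 22.5 to 45.5 CPM and Cyp4b1 from 3.17 to 8.21 CPM, below every AT1-like cluster at P60. One cluster had Inmt, Acta2 and the airway gene Scgb3a2, and another the airway gene Retnla, among their 10 leading genes, with none of the AT2 markers there.

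**Figure D5:**
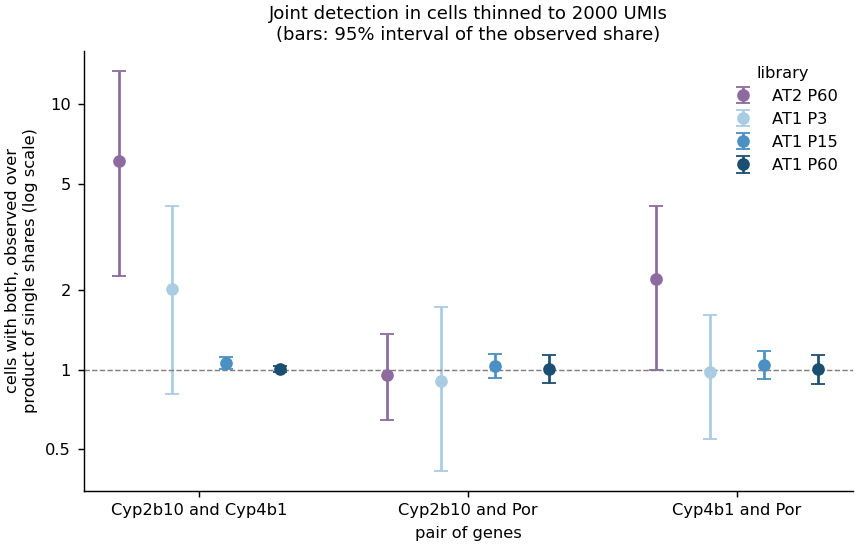
Cells with both genes of a pair, as the observed number over the product of the single shares (log axis), in cells thinned to 2000 UMIs, by library; bars are 95% exact intervals of the observed share and the dashed line marks the product. Cyp2b10 and Cyp4b1 lie at 6.12 in AT2 cells at P60, from 6 cells (1.86 without thinning), at 1.06 in AT1 cells at P15 and at 1.01 in AT1 cells at P60.

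Of 27 genes of the P450 family listed in any library, 6 reached 20 CPM in a sorted class. Besides Cyp2b10 and Cyp4b1, these were Cyp4v3, an omega-hydroxylase, Cyp4f13, the oxysterol hydroxylase Cyp39a1 and the club cell gene Cyp2f2. Cyp4v3 had 64.5 CPM in AT2 cells and 11.4, 27.0 and 47.0 CPM in AT1 cells at P3, P15 and P60. Cyp4f13 had 10.5 CPM in AT2 cells and 11.8, 14.5 and 41.8 CPM in AT1 cells, and Cyp39a1 had 23.0 CPM in AT2 cells and 18.6, 16.5 and 11.2 CPM in AT1 cells. Cyp2f2 had 55.4 CPM in AT2 cells and 10.0, 3.83 and 9.61 CPM in AT1 cells. The close paralogs Cyp2b9, Cyp2b13, Cyp2b19 and Cyp2b23 were listed in no library, and reads shared with them cannot be told apart here. Por overlaps Gm43091 and Gm16061 on the opposite strand, and neither was listed.

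Among 12 electron donors and partners, those at 50 CPM numbered 6 at P60 over P3, and 0 of the 6 were 2-fold apart, against 13.3% of all genes higher and 9.68% lower (median log2 ratio 0.38, against 0.12 over all genes). Cyb5a, which encodes cytochrome b5, had 358 CPM in AT2 cells and 415, 527 and 604 CPM in AT1 cells at P3, P15 and P60. Fdx1, the mitochondrial ferredoxin, was the 1 of 6 genes of the list at 50 CPM that was 2-fold higher at P15 than at P3, against 9.22% of all genes, with 125 CPM in AT2 cells and 205, 550 and 292 CPM in AT1 cells over the ages. Pgrmc1, a haem-binding partner of P450 enzymes, had 21.7 CPM in AT2 cells, against 789 CPM in AT1 cells at P60, 36.4-fold lower (31.8 to 41.8), and 661 and 864 CPM at P3 and P15. Of the 8 donors and partners at 50 CPM in AT2 over AT1 cells, 2 were 2-fold lower, Pgrmc1 and Fdx1, and 2 were 2-fold higher, Cyb5b (186 CPM in AT2 cells, against 48.8 CPM in AT1 cells) and the haem oxygenase Hmox1 (63.2 against 6.04 CPM), where 40.5% of all genes were lower and 13.3% higher. Of the 8, 2 reached 50 CPM through AT2 cells alone and 1 through AT1 cells alone, so nothing is read from these counts.

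Haem synthesis genes were few at this level. Alas1, the rate-limiting first enzyme, had 49.8 CPM in AT2 cells and 17.5, 51.6 and 34.6 CPM in AT1 cells at P3, P15 and P60, and it was 2-fold higher at P15 than at P3, where it reached 50 CPM through P15 alone. Alad, the next enzyme, had 189 CPM in AT2 cells and 167, 127 and 121 CPM in AT1 cells. Among the 16 receptors and partners, Nr1i3, the receptor known from liver for Cyp2b10, was listed in no library, and Nr1i2, its relative, was listed at P3 alone, with 0.132 CPM. A gene missing from a table was not taken as 0. Cebpb, a C/EBP factor gene, had 96.7 CPM in AT2 cells and 7.01, 23.1 and 218 CPM in AT1 cells at the 3 ages, and it too reached 50 CPM in AT1 cells through P60 alone. Cebpa, another C/EBP gene, had 327 CPM in AT2 cells (3351 UMIs), against 2 UMIs in the AT1 class at P60. The glucocorticoid receptor gene Nr3c1 had 49.2 CPM in AT2 cells and 127, 105 and 168 CPM in AT1 cells.

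Of 9 other oxidation and hydrolysis enzymes past 50 CPM at P60 or P3, 7 were at least 2-fold higher at P60 than at P3 and 0 lower, against 13.3% and 9.68% of all genes. Of the 9, 7 reached 50 CPM through P60 alone, where a gene had to be the higher one to be counted, so nothing is read from the count. Aldh3a1, an aldehyde dehydrogenase, had 4.39 CPM in AT2 cells and 0.926, 9.11 and 65.2 CPM in AT1 cells at P3, P15 and P60. The retinal dehydrogenase gene Aldh1a1 had 2.54 CPM in AT2 cells and 8.24, 17.1 and 83.5 CPM in AT1 cells. Ephx1, the microsomal epoxide hydrolase, had 18.1 CPM in AT2 cells and 1.45, 10.4 and 53.0 CPM in AT1 cells. The carboxylesterase Ces1d had 314 CPM in AT2 cells and 17.4, 16.7 and 90.2 CPM in AT1 cells. The other members of the 7 were the flavin monooxygenase Fmo5 (51.8 CPM at P60, against 5.11 CPM at P3) and the aldehyde dehydrogenases Aldh3b1 (108 against 20.9 CPM) and Aldh2 (349 against 142 CPM). In AT2 over AT1 cells, 5 of 11 were 2-fold lower and 3 higher, against 40.5% and 13.3% of all genes, and one of the 3 was Cbr2 (3441 CPM in AT2 cells, against 14.3 CPM in AT1 cells). Of the 11, 6 reached 50 CPM through AT1 cells alone and 2 through AT2 cells alone, so nothing is read from these counts either. Of 8 conjugation enzymes past 50 CPM, against the same 13.3% higher and 9.68% lower of all genes, 3 were 2-fold higher at P60 than at P3 (the glutathione transferases Gstm1, with 57.7 CPM at P60 against 10.3 CPM at P3, Gstt1, with 90.2 against 27.0 CPM, and Gstp1, with 55.5 against 26.8 CPM, all past 50 CPM at P60 alone) and 1 was lower, Mgst1, with 47.6 CPM at P60, against 158 CPM at P3. The lists were chosen with earlier results known, so their counts are a description.

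The genes whose pattern over the 4 libraries lay nearest to that of Cyp2b10, by the root mean square distance of log2(CPM + 5) centred on its mean, were Cyp4b1 (0.86), Gm14964 (0.88), Hist1h2bc (1.03), Tm4sf1 (1.34) and Ankrd1 (1.37), of 2104 genes. Hist1h2bc, a histone gene, had 81.1 CPM in AT2 cells and 33.4, 661 and 756 CPM in AT1 cells at P3, P15 and P60. Nearest to Cyp4b1 were Gm14964 (0.81), Cyp2b10 (0.86), the neuronal membrane glycoprotein gene Gpm6a (0.88), Cped1 (0.88) and the neurotrophin gene Bdnf (1.00). Cped1 had 1.37 CPM in AT2 cells and 52.6, 246 and 655 CPM in AT1 cells. Nearest to Por were mt-Cytb (0.07), Pigyl (0.08), Akr1b3 (0.12), Apoa1bp (0.13) and Atp1b3 (0.14). The mitochondrial gene mt-Cytb had 6693 CPM in AT2 cells and 2745, 4769 and 5143 CPM in AT1 cells. With 4 points per gene, the distance is a description of these libraries.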

How the data were processed

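The authors deposited 4 tables of natural log values per gene and cell, 1 per library. Per the submitters' processing notes, the tools were Cell Ranger 1.3.1 and Seurat 2.0.0, and the notes also name the builds mm10 and hg19 without a role. Unlogged, the deposited values of each cell sum to 10000, and dividing by the smallest step of a cell made 100% of the values whole to within 0.05 of a UMI. All counts here are these recovered UMIs, and the depth per library was 10379705 UMIs for AT2 cells at P60 and 26536894, 15401939 and 7276458 UMIs for AT1 cells at P3, P15 and P60. Depth sets the width of the intervals, which cover counting error only, and the reads were not reprocessed.

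Clustering used Scanpy 1.11.5 and igraph 0.11.9 on 1 library at a time, with 2000 variable genes, 20 components, 15 neighbours and Leiden resolution 0.5. A cluster was left unnamed when its median UMIs were below the library median divided by 3 and no marker of the sorted type was among its 10 leading genes (by fold, with a prior of 20 CPM). Otherwise it was named from another type when at least 2 markers of that type, and more than of the sorted type, were among those genes. The name took types with 3 markers detected in 25% of its cells. A further cluster was left unnamed when markers of the sorted type stood at less than 50% of their library median. Clusters with neither kind of name were kept as the sorted type. Cells of the remaining clusters with 3 endothelial, fibroblast, pericyte or immune markers, 4 mesothelial or 5 ciliated markers were set aside (10 AT2 cells and 7, 8 and 48 AT1 cells at P3, P15 and P60). These thresholds were set after the data were seen. No doublet caller was run, and no cell was removed for high UMIs.

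UMIs were summed over the class. Ratios of levels carry exact conditional intervals and shares exact Clopper-Pearson intervals (SciPy 1.17.1), all at 95%. Ratios of joint detection carry the interval of the joint share over a product held fixed. With 1 library per group there is no test of condition and no p-value. Genes were counted as apart at 2-fold, with 50 CPM and 30 UMIs in the higher library. Named were the 3 members, P450 genes at 20 CPM, up to 4 genes of each other list by level, and the 5 nearest patterns per member among genes at 100 CPM. Other genes named, among them those of the P15 cells split by Cyp2b10, were chosen after their values were seen. The members and lists were chosen with earlier results of these data known. Counting was tested on simulated data. Promoter windows are from RefSeq on GRCm38.p6 and gene overlaps from GENCODE on GRCm38.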

Additional observations from a re-analysis of the deposited data

How the results depend on the processing

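No paired analysis was possible because each group has 1 library, and no replicate was left out for the same reason. No member's log2 ratio between libraries changed sign in 84 alternative values, of which 29 moved by more than counting error.

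With all cells of a library, log2 ratios at P60 over P3 were 5.77 for Cyp2b10, 5.01 for Cyp4b1 and 0.72 for Por, at P15 over P3 5.14 for Cyp2b10 and 3.68 for Cyp4b1, and at P60 over P15 0.63 for Cyp2b10 and 0.13 for Por. Trimmed mean scaling gave 6.54, 5.64 and 0.69 for Cyp2b10, Cyp4b1 and Por at P60 over P3, 0.43, 1.17 and 0.13 at P60 over P15, and -5.06, -7.32 and 1.02 in AT2 over AT1 cells. Without ribosomal, mitochondrial and haemoglobin genes they were 6.51, 5.62 and 0.67 at P60 over P3 and 5.98, 4.34 and 0.44 at P15 over P3, with 0.53 for Cyp2b10 at P60 over P15 and, in AT2 over AT1 cells, -5.52 for Cyp2b10 and 0.56 for Por. Without cells holding 2 or more club markers, which left 72 AT2 cells, AT2 over AT1 was -6.32, -8.62 and 0.63. The club markers included Cbr2, which had 3441 CPM in the AT2 class, so these 72 cells are not the AT2 class cleared of club cells. At Leiden resolution 1, Cyp4b1 was at -9.01.

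Counts of genes 2-fold higher and lower without a minimum CPM were 1402 and 924 at P60 over P3, 759 and 1095 at P15 over P3, 778 and 458 at P60 over P15, and 1043 and 3842 in AT2 over AT1 cells, because more genes were counted. Trimmed mean scaling gave 747 and 813 in AT2 over AT1 cells. Without ribosomal, mitochondrial and haemoglobin genes, 520 were lower at P60 over P3, and 199 were higher and 339 lower at P15 over P3.

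Joint detection in AT2 cells rests on few cells: Cyp2b10 with Cyp4b1 was at 1.86 times the product without thinning. Of the 72 AT2 cells with fewer than 2 club markers, 61 reached 2000 UMIs and 0 held any of the 3 pairs, where the products give 0.0328 to 0.557 cells, too few to show a direction. Without cells with a UMI of Scgb3a2, Scgb3a1 or Cyp2f2, an alternative chosen after seeing the data, Cyp4b1 with Por was at 0.997 in AT2 cells and 1.71 in AT1 cells at P3. The cause was not tested for any of these except the added genes. Of 60 joint values, 54 stayed within counting error.

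The fewest UMIs behind a level were 57, for Cyp4b1 in AT2 cells, then 331 and 359 for Cyp2b10 in AT2 cells and in AT1 cells at P3. Without the platelet-led cluster at P60, an alternative chosen after seeing the data, every member's log2 ratio and joint value stayed within counting error.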
